A study of Homo sapiens with 6 samples.

Results

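Growth hormone and the placental lactogens are encoded by 5 closely related genes that lie next to each other on chromosome 17, GH1, GH2, CSH1, CSH2 and CSHL1. The genes were read with 11 probes on a 2-colour whole-genome array (4 probes for CSH1, 2 each for CSH2, CSHL1 and GH2, and 1 for GH1), out of 41000 probes and 29123 gene names. Probes were chosen by gene name, and the genes were selected on the CSH1 ratio in A2780s, so that ratio is given as a description with no test.

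The ovarian cancer cell lines SKOV3 and A2780s were used to study Hic-5, the focal adhesion adaptor encoded by TGFB1I1. Each modified clone was hybridised against the control clone of its own line on a pair of arrays with the dyes swapped, giving 6 arrays and 12 channels. In SKOV3, clones sh-S1 and sh-S2 carried shRNAs to Hic-5 in the pLKO.1-puro lentiviral vector, and Ctrl carried the same vector with a scrambled sequence. In A2780s, 1 stably transfected clone, pCMV-Hic-5, carried the Hic-5 gene in the pCMV6 entry vector, and Ctrl was a clone with empty pCMV6. The A2780s arrays hold the same 2 RNAs, so they are 1 replicate and no test of the condition was possible. The SKOV3 clones were 2 replicates against 1 Ctrl RNA, whose own spread is left out, and nothing in the labels says that RNAs came from separate cultures.

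Growth hormone is made by the somatotroph cells of the pituitary from GH1. GH2 encodes the placental variant of growth hormone, CSH1 and CSH2 encode placental lactogen, and CSHL1 is a lactogen-like gene, all of them transcribed in the placenta. The hormones act through the growth hormone and prolactin receptors, which signal by JAK2 and the STAT5 proteins and induce feedback inhibitors of the SOCS family. Expression vectors of the pCMV6 entry type are built with the polyadenylation region of the human growth hormone gene behind the insert, and that region closely resembles the ends of the lactogen genes.

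Probe sequences are shown because the 5 genes are so alike that a probe cannot always assign its signal to 1 of them. The following 4 probes read the same stretch of coding sequence in 4 genes, and capitals mark the 22 bases that all of them hold.

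CSH1 A_23_P381347: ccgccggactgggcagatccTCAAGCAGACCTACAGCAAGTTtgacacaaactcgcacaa
CSH2 A_23_P207154: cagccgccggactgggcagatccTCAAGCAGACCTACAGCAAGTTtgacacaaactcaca
CSHL1 A_23_P344408: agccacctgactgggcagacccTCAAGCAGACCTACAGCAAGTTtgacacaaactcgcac
GH1 A_23_P207194: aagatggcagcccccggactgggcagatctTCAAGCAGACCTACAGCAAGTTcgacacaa

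The CSH1 and CSH2 probes of this set matched at 56 of 57 overlapping bases, and the CSH1 and GH1 probes at 47 of 50. The array design itself lists the CSH1 probe under CSH1 and CSH2. The CSH2 probe is listed under CSH2 and GH1, and the GH1 probe under GH1 and GH2. Outside this set, CSH1 A_23_P381351 is listed under CSH1, CSH2 and CSHL1, and CSH2 A_23_P207174 under CSH2 and GH2.

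The other sequence to see is the end of CSH1. Probes A_23_P207170 and A_24_P211044 lie at chr17:61972276-61972335 and chr17:61972271-61972330 (hg19, minus strand), start at bases 850 and 855 of the transcript and overlap by 55 bases, so they are close to 1 measurement. The array design lists A_23_P207170 under CSH1 alone and A_24_P211044 under CSH1 and CSH2, so the signal of the latter cannot be assigned to 1 of these genes. A window of 30 bases that both of them hold is shown, with the polyadenylation hexamer in capitals.

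CSH1 A_23_P207170 and A_24_P211044: cagccttgtcctAATAAAattaagttgtat

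These were the 2 member probes that held AATAAA, a string found on the printed strand in 4.2% of all probes. Both strands of all 41000 probes were searched for runs of 14 bases in common with them, and each shared such a run with the other and with no other probe. The remaining CSH1 probes lie further 5′, A_23_P381351 at chr17:61973095-61973154 from base 377 and A_23_P381347 at chr17:61972503-61972562 from base 623. The single GH1 probe, at chr17:61994800-61994859, starts at base 539 of its transcript, and the end of GH1 was not analysed here.

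TGFB1I1, the gene carried by the vector, was first examined as a check of the labels. In A2780s its log2 ratio of pCMV-Hic-5 over Ctrl was 4.05 where Cy5 labelled the clone and 2.60 where Cy3 did, averaging 3.33, the highest of 30530 probes measured. In SKOV3 its mean log2 ratio was 0.03 ± 0.07 (SD, n = 2 clones, limma adjusted p = 0.855). Lower TGFB1I1 was not seen in either RNA labelled as a Hic-5 knockdown. This differs from the paper, which reports inhibited Hic-5 in its stable knockdown clones by RT-PCR and Western blot. The 1 probe of TGFB1I1 was dim in SKOV3 in Cy5. In Cy5 its intensity was 69.14 and 62.85 in Ctrl, over local backgrounds of 43 and 46.5. In sh-S1 and sh-S2 it was 57.44 and 55.72, over 49 and 42.5. A decrease was therefore not readily detectable in Cy5. In Cy3 the probe was brighter, at 757.6 and 647.8 in Ctrl, over local backgrounds of 41 and 36.5. In sh-S1 and sh-S2 it was at 701 and 507.9 in Cy3, over 39 and 35.5. It was flagged well above background in every SKOV3 channel. These are raw intensities, and the same dye was read for clone and Ctrl on different arrays. The check does not settle whether the knockdown was present.

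In A2780s, the signal of the 2 probes at the end of CSH1 was higher in pCMV-Hic-5 than in Ctrl, by about 5-fold, while neither the coding CSH1 probe nor any measured probe named for CSH2, CSHL1, GH1 or GH2 reached 1.5-fold. For A_23_P207170 the spot intensity was 616900 in pCMV-Hic-5 and 39720 in Ctrl when Cy5 labelled the clone, and 385400 against 181100 after the dye swap. The log2 ratios after normalisation were 2.86 and 1.81, with a mean of 2.34, a 5.05-fold difference. For A_24_P211044 the intensities were 629800 against 38230 and 363400 against 213700. Its log2 ratios were 2.95 and 1.49, a mean of 2.22 and a 4.66-fold difference. On both probes the clone was brighter than Ctrl in both dye orientations, and the ratio was smaller with the clone in Cy3, as it was for TGFB1I1. The pCMV-Hic-5 spot of A_24_P211044 was saturated on 1 of the 2 arrays, the one where Cy5 labelled the clone, so its ratio there may be too low.

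The other members stayed near a ratio of 1 in A2780s. A probe was measured when it stood well above background in Ctrl on both arrays or in the clone on both arrays, and it was called when its mean passed 1.5-fold with both arrays in the same direction. Of the 11 member probes 9 were measured, and 2 of these were called higher, against 3.26% of all measured probes called higher. The genes were chosen on this contrast, so nothing is read from that share. The 7 measured members that were not called ran from -0.07 to 0.27 in mean log2 ratio, with a median of 0.19 beside a median of -0.01 over all measured probes. No member lay near the threshold. The highest that was not called was GH1, the pituitary hormone gene, with 0.31 and 0.22 (1.2-fold on the mean), and the lowest that was called was CSH1 A_24_P211044, at 4.66-fold.

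The coding probe of CSH1, A_23_P381347, starts 227 bases before A_23_P207170 in the same transcript and gave log2 ratios of 0.07 and 0.36. The other CSH1 probe, A_23_P381351, had an outlier spot where Cy5 labelled the clone and was dropped there, and gave -0.33 on the other array. CSH2 A_23_P207154, which shares its site with the coding CSH1 probe, gave 0.28 and 0.11. The ratios of the homologous stretch were thus small in each gene that the array reads there, and far below those at the CSH1 end on both arrays. By genomic position CSH2 A_23_P207174, at chr17:61949372-61949425, lies on the 3′ side of A_23_P207154 at chr17:61949610-61949669 (minus strand). Their listed transcript starts, bases 632 and 838, run in the reverse order, so A_23_P207174 is not taken as the end of CSH2. A_23_P207174 gave -0.02 and 0.07. For CSHL1, A_23_P207180 gave 0.21 and -0.06, and A_23_P344408 gave 0.00 and -0.14. For GH2, A_23_P207160 gave 0.27 and 0.13, and A_24_P216014, which was not measured by the rule, gave 0.13 and -0.20.

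**Figure D1:**
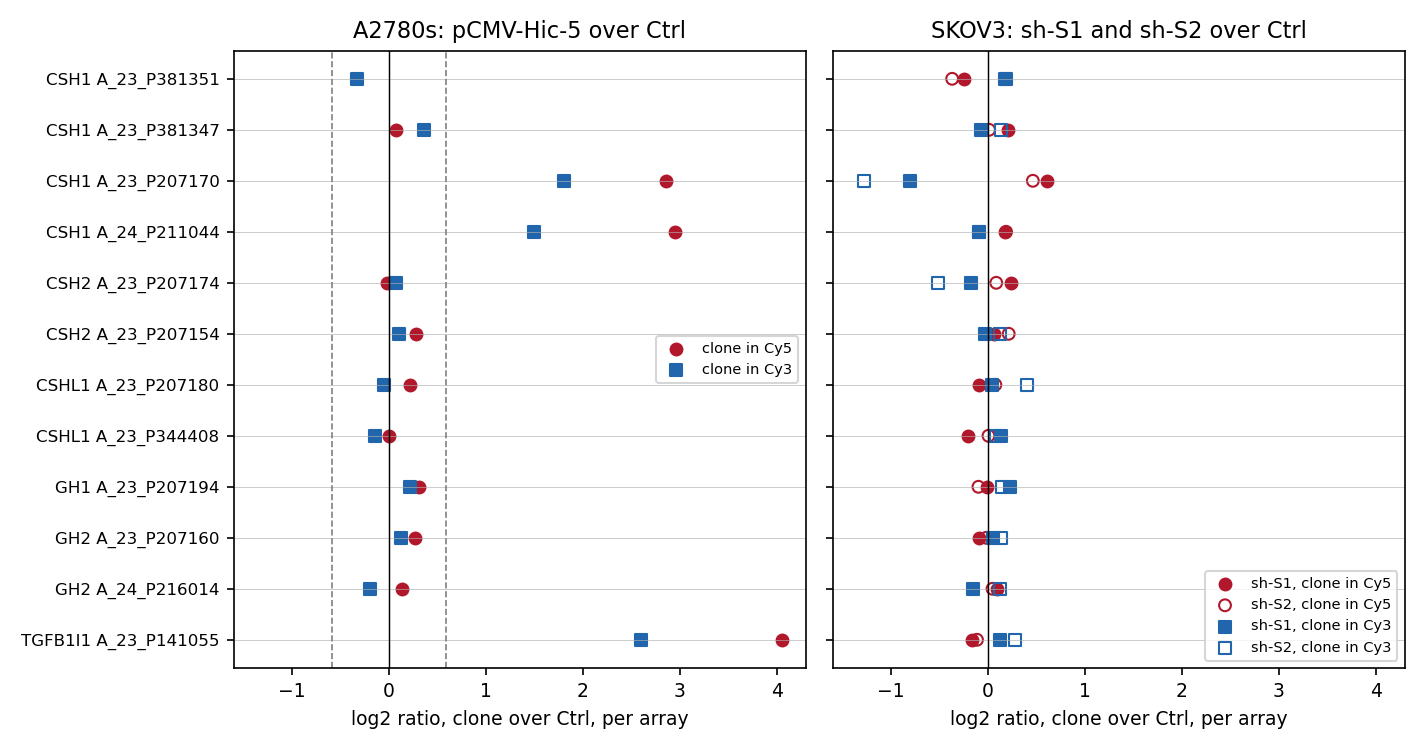
Log2 ratio of clone over Ctrl on each array (x axis) for the 11 member probes and TGFB1I1 (rows), in A2780s (left) and SKOV3 (right). Points are single arrays, colour and shape give the dye of the clone, and dashed lines mark 1.5-fold. In A2780s the 2 probes at the CSH1 end lie between 1.49 and 2.95 and TGFB1I1 between 2.60 and 4.05, and in SKOV3 A_23_P207170 lies on opposite sides of 0 in the 2 dye orientations.

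The same pair of probes was also bright in the A2780s control. Levels are log2 values per channel after normalisation within and between arrays, and each probe is set only against itself. For A_23_P207170 the level in pCMV-Hic-5 was 16.98 in Cy5 and 17.58 in Cy3, and in A2780s Ctrl it was 14.12 in Cy3 and 15.77 in Cy5. In SKOV3 Ctrl it was 7.87, 8.77, 7.95 and 9.25, in sh-S1 8.47 and 7.96, and in sh-S2 8.41 and 7.97. The A2780s clone was highest, A2780s Ctrl came next without overlap, and the 3 SKOV3 RNAs overlapped each other.

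For A_24_P211044 the levels were 17.01 and 17.53 in pCMV-Hic-5, 14.06 and 16.03 in A2780s Ctrl, and between 7.97 and 8.24 in all 8 SKOV3 channels. A2780s Ctrl minus SKOV3 Ctrl was 6.95 on the log2 scale for A_24_P211044 and 6.48 for A_23_P207170. These were the first and the second largest of the 30783 probes compared between the control RNAs, of which 8.6% were higher in A2780s Ctrl by 2-fold with no overlap. TGFB1I1 was also higher in A2780s Ctrl, at 11.96 and 13.80 against 7.78 to 8.55 in SKOV3 Ctrl, a difference of 4.66. For Hic-5 protein the paper reports the opposite order, with rather low expression in A2780s and strong expression in SKOV3. The array reads RNA from transfected or transduced clones, and why the 2 orders differ was not tested. Read in 1 dye at a time, the Ctrl difference of A_24_P211044 was 6.06 in Cy3 and 7.85 in Cy5.

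The other member probes showed no such step between the lines. CSH1 A_23_P381347 was at 7.33 and 7.06 in A2780s Ctrl and at 6.75 to 7.13 in SKOV3 Ctrl, a mean difference of 0.26. GH1 was at 7.20 and 7.18 in A2780s Ctrl and at 6.60 to 6.77 in SKOV3 Ctrl, a mean difference of 0.53. Over the 9 member probes other than those at the CSH1 end, the difference between the controls ran from -0.31 (CSH2 A_23_P207174) to 0.53 (GH1). All 9 stayed between 6.54 and 8.85 in every channel of both lines.

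**Figure D2:**
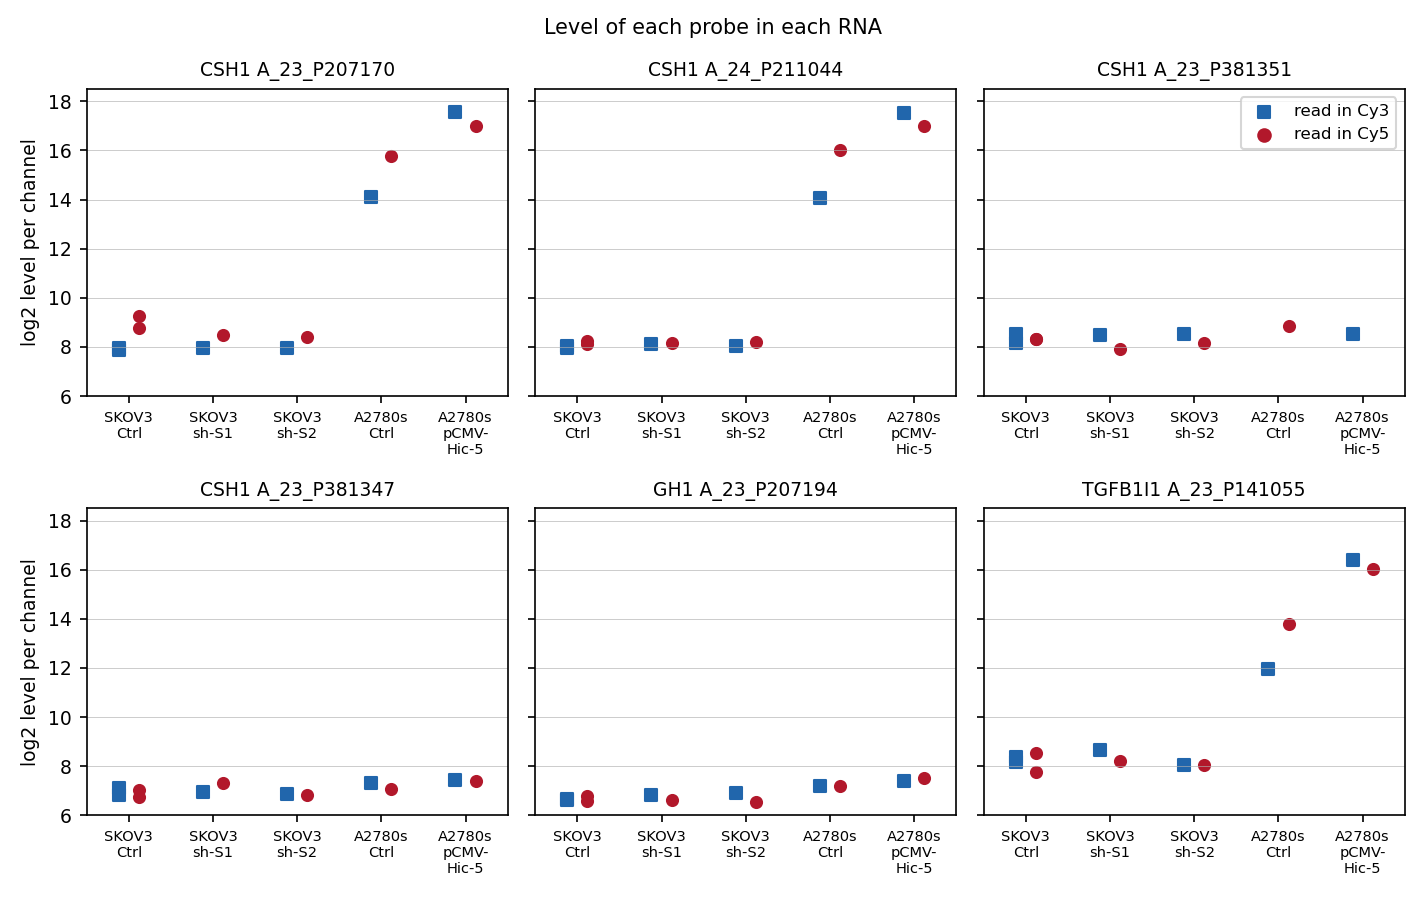
Log2 level per channel (y axis) of 5 member probes and TGFB1I1 in each RNA (x axis), 1 point per channel, with colour and shape for the dye. The 2 probes at the CSH1 end sit above 14 in both A2780s RNAs and below 9.3 in all SKOV3 RNAs, while CSH1 A_23_P381351, CSH1 A_23_P381347 and GH1 stay below 8.9 throughout.

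The pCMV6 vector was carried by both A2780s clones, empty in Ctrl and with the Hic-5 gene in pCMV-Hic-5. The SKOV3 clones carried pLKO.1-puro instead. Whether the signal at the CSH1 end came from a vector transcript or from the locus was not tested. The coding probes of CSH1, CSH2, CSHL1 and GH1 did not follow the end of CSH1 in either A2780s RNA. TGFB1I1, which the empty vector does not carry, was also higher in A2780s Ctrl than in SKOV3 Ctrl, by 4.66 on the log2 scale. Neither the end of GH1 nor a vector sequence was compared with the CSH1 end, so no source is assigned. Vector, cell line and slide cannot be told apart in the comparison of A2780s with SKOV3, since each line had its own vector and its own slide.

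**Figure D3:**
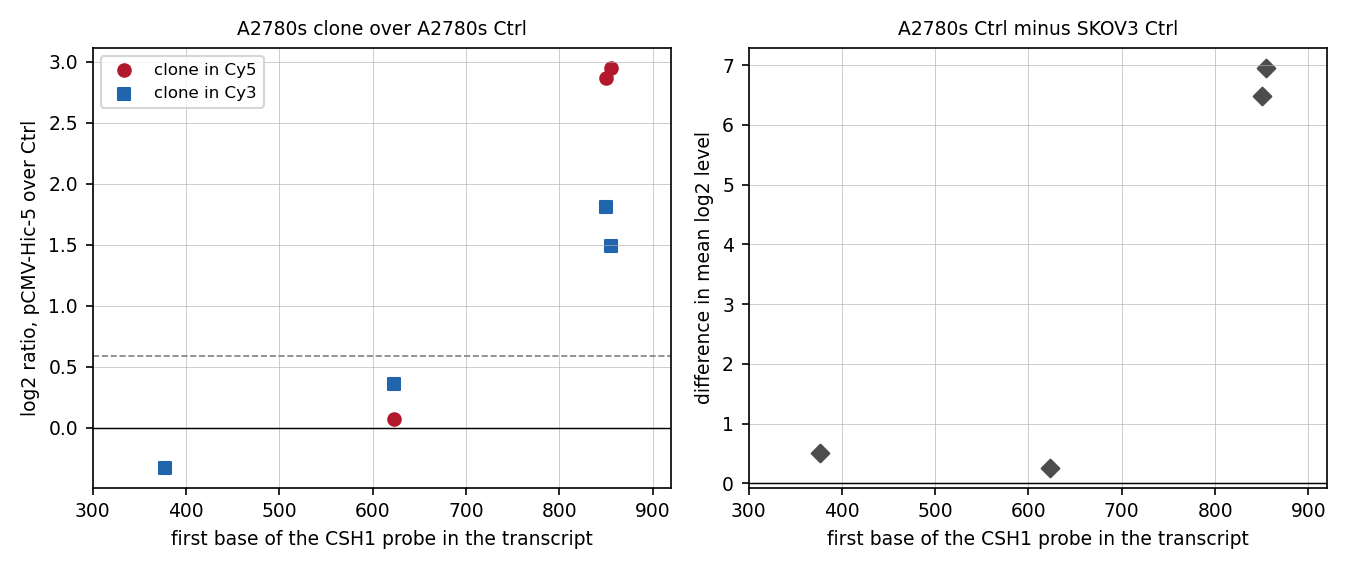
The 4 CSH1 probes by their first base in the transcript (x axis), with the log2 ratio of pCMV-Hic-5 over Ctrl per A2780s array (left; dashed line, 1.5-fold) and the difference in mean log2 level between A2780s Ctrl and SKOV3 Ctrl (right). The probes from bases 377 and 623 lie below 0.6 in both panels and those from bases 850 and 855 between 1.49 and 2.95 on the left and at 6.48 and 6.95 on the right; the first probe rests on 1 A2780s array.

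In SKOV3 no member was called at an adjusted p of 0.05 and 2-fold, and 5 of the 11 probes were tested, against 7.14% of 24955 tested probes called in either direction. None of the 5 had an unadjusted p under 0.05 in limma. CSH1 A_23_P207170 had log2 ratios of 0.60 and -0.81 in sh-S1 and 0.46 and -1.29 in sh-S2, each pair given with the clone in Cy5 first. The sign followed the dye in both clones, and the mean was -0.26 ± 0.22 (SD, n = 2 clones; limma, adjusted p = 0.130). CSH1 A_24_P211044, which reads nearly the same bases, had 0.18 and -0.10 in sh-S1 and 0.18 and -0.09 in sh-S2, with a mean of 0.04 (limma, adjusted p = 0.792). The other tested members were CSH1 A_23_P381351, CSH2 A_23_P207174 and CSHL1 A_23_P207180, with means from -0.09 to 0.11 and adjusted p from 0.520 to 0.675 in limma. All 11 members stood well above background in Cy3 on the 4 SKOV3 arrays, but 1 to 6 of them did in Cy5, where 42.6% to 62.7% of all probes did. A difference in the dim members was therefore not readily detectable there.

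Genes next to the cluster on chromosome 17 were examined from a list of 19. In A2780s 18 were measured and none was called, with a median log2 ratio of -0.06. Over all measured probes 4.58% were called in either direction, so a list of this size may hold no call and nothing is read from the count. SMARCD2, the neighbour beyond CSH2 and a chromatin remodelling subunit, gave -0.03 and -0.16, and CD79B, the B cell receptor gene beyond GH1, gave 0.05 and -0.13. ERN1, a sensor of unfolded protein in the endoplasmic reticulum, gave 0.16 and 0.28. These 3 genes lay within 1.5-fold of Ctrl. In SKOV3 16 were tested with limma and none was called, although 5 of the adjusted p-values were under the threshold with less than 2-fold difference.

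Markers of the tissues that normally make these hormones were examined next, and nothing is read from the counts of lists this small. Of 17 pituitary genes 15 were measured in A2780s, and the median was -0.08. None was called higher and 1 lower, against 3.26% and 1.32% of all measured probes. POU1F1, the transcription factor that drives GH1 in the pituitary, gave -0.20 and 0.03. Of 29 placental genes 18 were measured and none was called, with a median of -0.09, against 4.58% of all measured probes called in either direction. PAPPA, the protease of pregnancy plasma, gave -0.01 and -0.25, and CGA, the common subunit of the glycoprotein hormones, gave -0.05 and -0.37. In SKOV3 the placental list had 1 call among 20 tested, against 7.14% of all tested probes called in either direction. This was HSD17B1, which makes oestradiol, at a mean log2 ratio of 1.56 (limma, adjusted p = 5.92e-05).

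Receptors and signalling genes of growth hormone and prolactin were examined from a list of 27. In A2780s 23 were measured, 2 were called higher and 1 lower, against 3.26% and 1.32% of all measured probes, and the median was -0.02. Counts this small are given as a description. SOCS1 gave 0.64 and 0.78 and CISH gave 0.71 and 0.63, both of them feedback inhibitors of cytokine signalling. PTPN11, a phosphatase of receptor signalling, gave -0.87 and -0.36. For each of these 3 genes 1 probe was called, and the other probes were not. The receptors were not called, with -0.39 and -0.26 for GHR and 0.23 and -0.06 for PRLR, and neither were JAK2 (-0.18 and 0.14) and STAT5B (0.08 and -0.07). SOCS2, a further inhibitor of growth hormone signalling, gave -0.21 and 0.30.

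In SKOV3 16 genes of this list were tested, 1 was called higher and 1 lower, against 2.98% and 4.16% of all probes tested. SOCS2 was higher at a mean log2 ratio of 3.71 (limma, adjusted p = 2.49e-06), and IGFBP3, a carrier of insulin-like growth factors, fell by 2.62 on the log2 scale (adjusted p = 9.44e-06). Among 11 markers of ovarian and epithelial cells, 6 were measured in A2780s. KRT18, a simple epithelial keratin, was called higher at 0.54 and 0.65, against 3.26% of all measured probes called higher. PAX8, the marker of Müllerian epithelium, stood well above background in all channels of both lines. In A2780s 73.8% to 87.7% of all probes did so per channel. The log2 level of PAX8 was 8.87 in A2780s Ctrl, against 13.89 in SKOV3 Ctrl. In SKOV3 5 of the 8 markers tested were called lower, against 4.16% of all probes tested. One was PAX8 at -3.58 (limma, adjusted p = 2.76e-06). The others were keratins, KRT7 at -2.20, KRT8 at -2.14, KRT18 at -3.53 and KRT19 at -2.55. For KRT8 2 of 3 probes were called, and for KRT18 3 of 4. The paper reports E-cadherin (CDH1) and EPCAM protein as induced in these clones. On the array CDH1 and EPCAM were not tested, with mean log2 ratios of -0.03 and -0.10. Of the probes for HSD17B1, IGFBP3 and PAX8, 1 each was called in SKOV3, while both SOCS2 probes were.

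**Figure D4:**
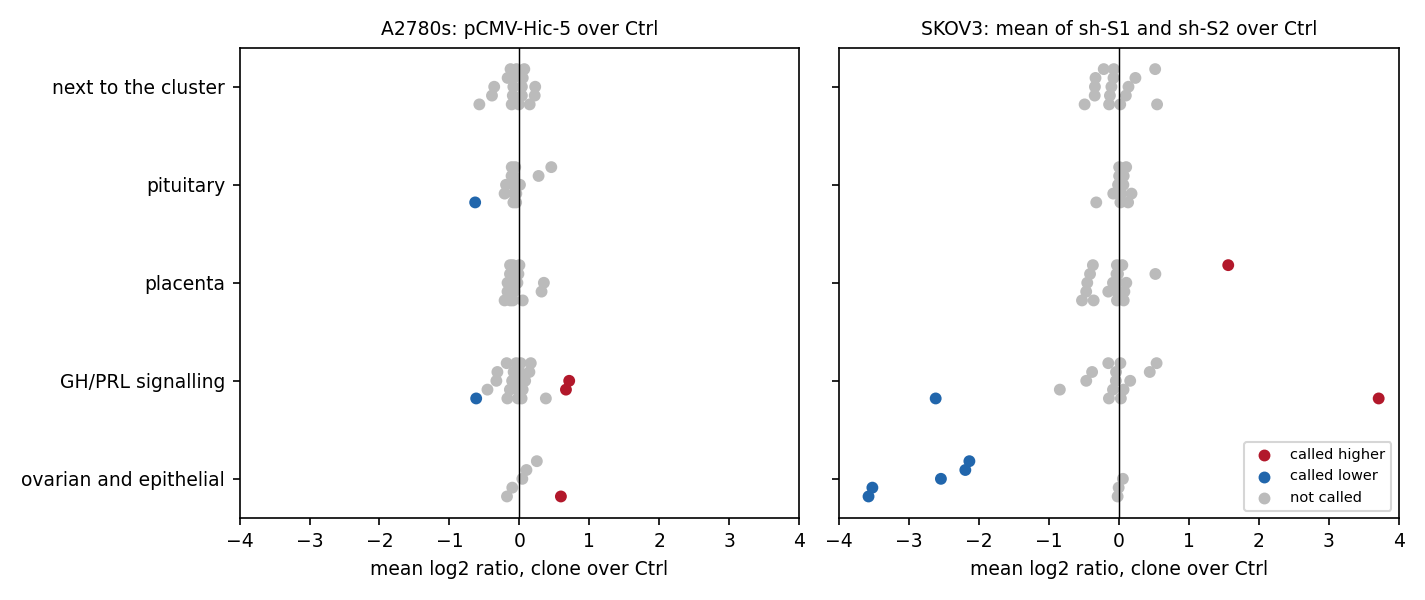
Mean log2 ratio of clone over Ctrl (x axis) for the measured genes of 5 lists (rows), in A2780s (left) and SKOV3 (right), 1 point per gene, coloured where called. In A2780s no listed gene passes 1 on this scale, and no gene next to the cluster and no placental gene is coloured.

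By size of the A2780s ratio, CSH1 A_23_P207170 stood 11th of the 30530 probes. Just above it were IL21R (mean log2 ratio 2.34), FUT1 (2.44) and ATF3 (2.51, a stress-induced transcription factor), and just below it were HTRA3 (2.33), CHAC1 (2.31) and TRIB3 (2.29). The dye orientations gave 1.77 and 2.81 for TRIB3, a gap close to that of CSH1 in the other direction, and lay closer together for the other 5 genes. Across the 12 channel levels, the genes most like CSH1 A_23_P207170 among 30316 probes were CB162722 (Pearson r = 0.996), THC2541992 (0.995), LRRC2 (0.995), HMBOX1 (0.994) and CD86 (0.993), and TGFB1I1 had r = 0.981. The channels share arrays, slides and cell lines, so these values are a description. In all 5 the level was higher in the A2780s RNAs than in SKOV3 Ctrl, with A2780s ratios from 0.89 to 1.00.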

How the data were processed

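RNA of each clone and its Ctrl was labelled with Cy3 and Cy5 and hybridised to Agilent 2-colour arrays by the authors, who deposited scanner files with spot intensity and local background (Feature Extraction 8.5.1.1 per the labels, 10.7.3.1 per the file headers; probe coordinates hg19). A deposited table of log10 ratios holds the same values as the files' own log ratio column. Mean intensities were corrected with normexp (offset 50) in limma 3.58.1 (R 4.3.3), normalised by loess within arrays, and turned to clone over Ctrl. Levels came from Aquantile normalisation. Outlier spots and spots with a local background over 1000 were left out. SKOV3 ratios were averaged per clone and tested against 0 with limma's lmFit and eBayes, with Benjamini-Hochberg adjustment over all 24955 probes. In A2780s a 1.5-fold rule was used.

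The members and the gene lists were chosen with earlier results of these data known. All member probes and TGFB1I1 were named, with 1 probe per listed gene (the brightest), the 5 genes most alike across the channels, and the 3 on either side of CSH1 in the A2780s order. Neighbouring genes were taken from RefSeq names. The functions were tested on simulated data. A first simulation for SKOV3, which took the SD of 2 clones as the true SD, recovered none of its planted changes and was replaced by one that draws the spread from limma's fitted prior. The number of arrays limits the precision. Alternatives tried were other background corrections, normalisations, filters, fold rules and subsets of arrays. The values of 1 listed gene are not reported here.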

Additional observations from a re-analysis of the deposited data

How the results depend on the processing

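Both CSH1 end probes remained called in A2780s, and no other member was, under all 11 alternatives, and their mean log2 ratios ran from 1.49 to 2.95. Leaving out 1 array gave 2 members each time, and 4 to 7 listed genes against 5. The listed genes called in A2780s numbered 2 with normexp fitted on all spots, 2 with 1.5-fold required on each array and 0 with 2-fold on the mean. Calls over all measured probes also fell, to 966, 618 and 223 against 1397, so nothing is read from these counts. In SKOV3, 1 member was called with only the arrays with the clone in Cy3, where 2612 of all tested probes were called. It was CSH1 A_23_P207170 at -1.05, and its ratio was 0.53 with only the arrays with the clone in Cy5 (limma, adjusted p = 0.00189 and 0.00173). CSH1 A_24_P211044 turned to -0.10 with the clone in Cy3. TGFB1I1 in SKOV3 turned to -0.014 with plain subtraction, -0.021 without clone sh-S2 (0.083 without clone sh-S1) and -0.14 with the clone in Cy5. Leaving out 1 clone left 1 replicate, read on 2 arrays of the same RNAs with the dyes swapped, so calls are not given. The ratio of CSH1 A_23_P207170 was then -0.41 without clone sh-S1 and -0.10 without clone sh-S2. Listed genes called in SKOV3 numbered 16, against 8, with Feature Extraction's processed signals, with plain subtraction and with the deposited series values. Calls over all tested probes also rose, to 4326, 3930 and 4355 against 1781, so nothing is read from the listed genes. The cause of these changes was not tested. The control difference between the lines, with alternatives chosen after seeing the data, ran from 6.06 to 7.85. Slide could not be a block, since all arrays of a cell line lay on 1 slide. No paired analysis was possible because the replicate numbers only mark the dye orientation of the same RNAs. Signal over background limits the dim members, above all in Cy5 on the SKOV3 arrays.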
